A study of Homo sapiens with 2 samples.

Results

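The genes described here are the amino acid transporters of 7 solute carrier (SLC) families, SLC1, SLC3, SLC6, SLC7, SLC36, SLC38 and SLC43, in HaCaT keratinocytes that received the transcription factor FLI1. Members were taken by symbol: every gene of these families in the gene table, 43 of 15159 genes. Of the 43 genes, 30 had at least 20 estimated reads in 1 library and are compared below, against 11654 genes past the same filter in the whole table. The study holds 2 RNA-seq libraries from HaCaT, an epidermal line of human origin that grows indefinitely without an added oncogene. One dish was given the empty MigR1 plasmid (vector control) and 1 dish MigR1 carrying FLI1 (FLI1 overexpression), both by Lipofectamine 2000 with 4 μg of DNA, and RNA was taken 2 days later. Both libraries therefore share the lipid reagent, the plasmid backbone and the time. The labels mention a check for GFP but give neither the share of cells that took up the plasmid nor a sort. Total RNA of a whole dish was read, so fewer cells with a transcript and less of it per cell cannot be told apart.

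Amino acids cannot cross the plasma membrane unaided, and each SLC family moves a set of them by its own mechanism. SLC7 light chains such as LAT1 pair with an SLC3 heavy chain and exchange one amino acid for another. SLC1A5 and the SLC38 carriers load the cell with glutamine and other neutral amino acids with the help of sodium. SLC6 carriers use sodium and chloride to take up osmolytes, creatine, glycine and neurotransmitters. SLC36 carriers run on protons, and several members of SLC36 and SLC38 sit on the lysosome, where they feed the nutrient sensor mTORC1. Epidermal keratinocytes need these routes for protein synthesis, for cystine as a source of glutathione, and for taurine and betaine as osmolytes. A family name is not a substrate: SLC6A8 carries creatine, SLC6A2 noradrenaline, SLC6A4 serotonin and SLC43A3 purine nucleobases.

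The libraries held 14497105 reads (vector control) and 14677273 reads (FLI1) after rounding. FLI1 had 64 and 2452 reads, so the gene that was introduced was high in the library labelled for it. All 7 keratinocyte markers (KRT5, KRT14, TP63, KRT6A, DSP, ITGA6 and KRT17) were read, with a summed level of 8941 and 8869 FPKM (fragments per kilobase of transcript, scaled for depth, as deposited). Their own log2 ratios ran from -0.26 (KRT5) to 0.44 (KRT17). Markers of melanocytes, fibroblasts, leukocytes, endothelium and neurons summed to between 0.30 and 3.86 FPKM per list and library. The melanocyte sum went from 0.30 to 3.86 FPKM, of which PMEL made up 0.11 and 3.64, while TYRP1 and DCT had at most 2 reads in either library. The endothelial sum went from 0.43 to 0.75 FPKM, with VWF at 52 and 90 reads (0.79, 0.29 to 1.32), while CDH5 and KDR had at most 1 read in either library. Their part in the results below was not tested. With 1 library per group there is no replicate and no test. A log2 ratio below is FLI1 over vector control, and its 95% interval covers counting error between these 2 libraries only.

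By level, the transporters of this cell were led by one heterodimer. SLC7A5, the LAT1 light chain that imports leucine and other large neutral amino acids, stood at 547.3 FPKM in the vector control and 489.67 in the FLI1 library, and SLC3A2, its heavy chain CD98, at 523.58 and 492.19 FPKM. Both ranked between 139 and 152 of the 15159 genes in both libraries. SLC1A5, the glutamine exchanger ASCT2, followed with 161.46 and 148.54 FPKM, then the glutamine carriers SLC38A2 (132.49 and 139.23) and SLC38A5 (132.03 and 123.90) and the nucleobase carrier SLC43A3 (126.01 and 127.09). The next levels were those of SLC7A1, the arginine and lysine carrier CAT1, at 77.19 and 79.16 FPKM, and SLC38A1 at 67.11 and 64.98. Neighbours within this order lay close: SLC38A2, SLC38A5 and SLC43A3 all lay between 123.90 and 139.23 FPKM in both libraries, and SLC7A5 stood above SLC3A2 in the vector control and below it in the FLI1 library. At the other end, SLC6A2, SLC6A12, SLC6A14 and SLC7A7 had less than 1 FPKM in both libraries. Summed over the 30 genes the level was 2034 FPKM in the vector control and 1928 in the FLI1 library.

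**Figure D1:**
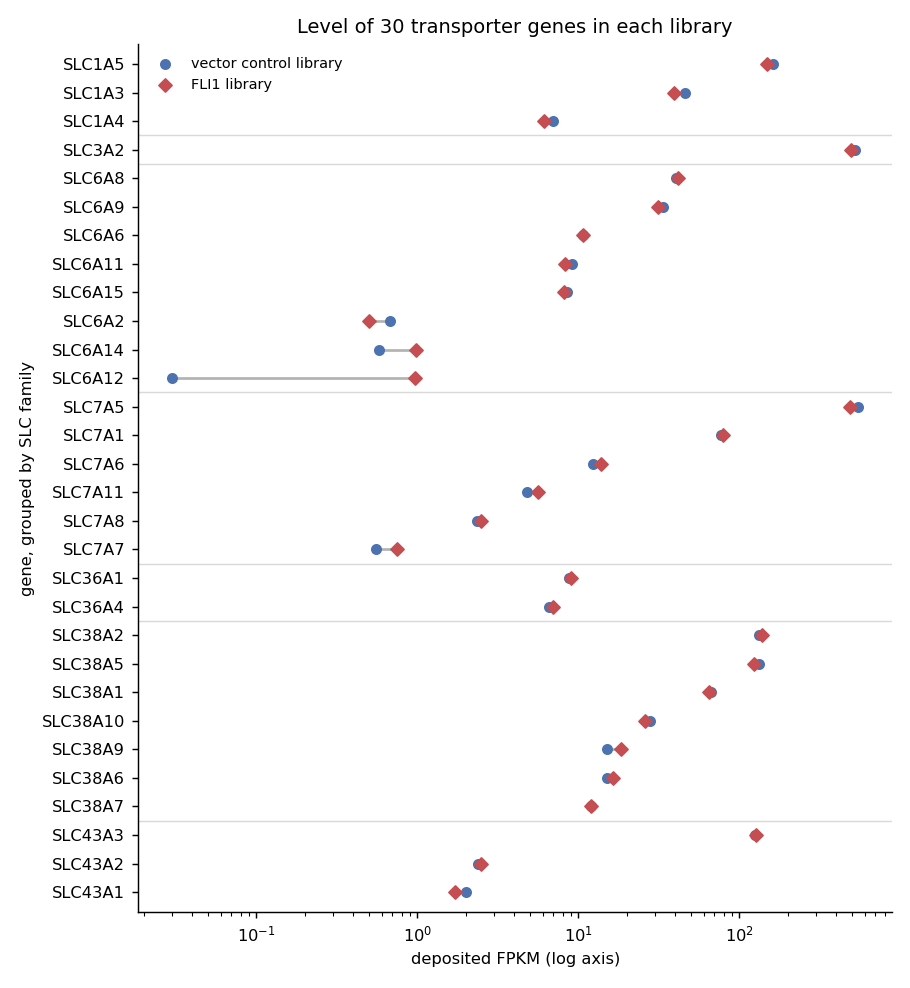
Deposited FPKM (log axis) of the 30 transporter genes past the filter, grouped by SLC family, with a circle for the vector control library and a diamond for the FLI1 library. Levels run from below 1 FPKM to 547.3 FPKM, the 2 libraries nearly coincide for most genes, and SLC6A12 has the widest gap (0.03 and 0.97 FPKM).

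Most transporter genes had nearly the same value in both libraries, and 1 of 30, SLC6A12, reached the 2-fold rule on the higher side in the FLI1 library. On the lower side 0 of 30 reached it. Over all genes past the filter, 1.19% reached it on the higher side and 0.481% on the lower side. By the counting interval, 7 of the 30 genes (23.3%) lay above 0 against 16.5% of all genes, and 6 of 30 lay below 0 against 14.7% of all genes. The median log2 ratio over the 30 genes was 0.0165 and that of all genes -0.0035, and the former changed sign when libraries were scaled by their totals or genes that share reads were left out. The genes below 0 were SLC7A5, SLC3A2, SLC1A5, SLC1A3, SLC38A5 and SLC38A1, which include the amino acid transporters of highest level. The genes above 0 were SLC6A12, SLC6A14, SLC38A9, SLC7A11, SLC7A6, SLC38A2 and SLC7A1. Depth sets what can be seen: among the 13 transporter genes with at least 1000 reads in 1 library, 6 (46.2%) had an interval below 0 and 3 (23.1%) above 0, where all 3719 genes of that depth had 19.0% and 26.6%. The median half-width of the interval was 0.061 for these 13 genes, 0.18 for the 12 genes with 100 or more but under 1000 reads and 0.73 for the 5 genes with fewer.

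**Figure D2:**
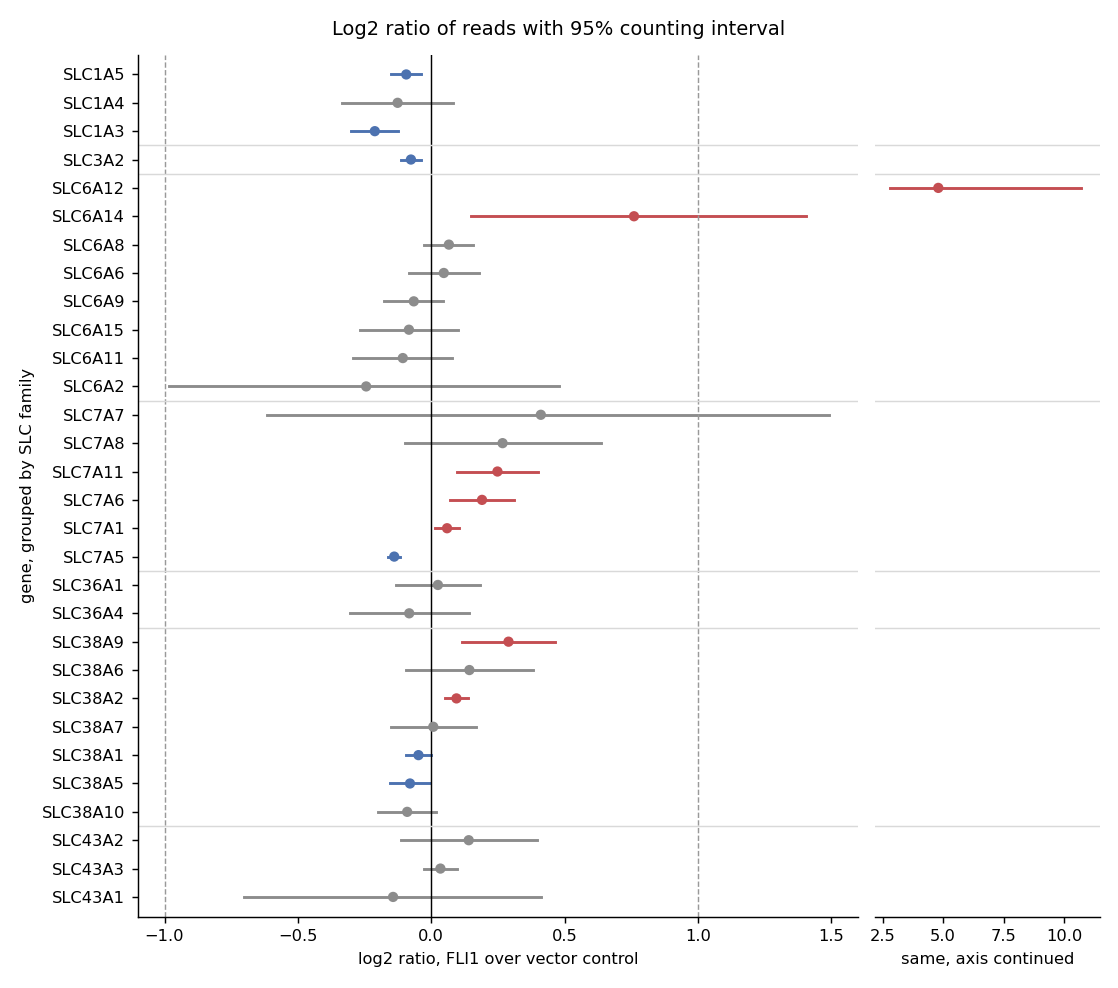
Log2 ratio of reads (FLI1 over vector control) for the 30 transporter genes by SLC family, with points for the ratio and bars for the 95% counting interval, dashed lines at a 2-fold difference, and a second panel that continues the axis. Red marks the 7 intervals above 0, blue the 6 below 0 and grey the 17 that include 0, and SLC6A12 alone lies past the dashed lines.

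The CD98 heavy chain and its main light chain were both slightly lower in the FLI1 library, while the minor light chains had ratios above 0. SLC7A5 (gene ID 8140, GRCh38 chromosome 16, 87830023 to 87869488, minus strand) had 33822 reads in the vector control and 30559 in the FLI1 library. Its log2 ratio was -0.14 (interval -0.16 to -0.12), the narrowest interval among the members, and 5.71% of its exon bases overlap an antisense gene. SLC3A2 (gene ID 6520, chromosome 11, 62856102 to 62888875, plus strand) had 12724 and 12006 reads, a ratio of -0.08 (-0.11 to -0.04). The intervals of the partners did not overlap, so between these libraries the light chain was lower by more than the heavy chain. Per length, SLC7A5 amounted to 1.05 times SLC3A2 in the vector control and 0.995 times in the FLI1 library. The 5 light chain genes of SLC3A2 past the filter summed to 567 and 512 FPKM, and SLC7A5 made up 96.5% and 95.6% of that sum.

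SLC7A11 is the light chain xCT, which brings in cystine in exchange for glutamate. It had 654.93 and 773.89 estimated reads, higher in the FLI1 library with a log2 ratio of 0.25 (0.10 to 0.40). Its counts were not whole, and 8.97% of its exon bases overlap the antisense gene SLC7A11-AS1, which is not in the gene table. SLC7A6, the light chain y+LAT2 that exchanges arginine for glutamine, had 1073.11 and 1218.12 estimated reads, a ratio of 0.19 (0.07 to 0.31). This gene shares 44.4% of its exon bases with SLC7A6OS on the opposite strand, and SLC7A6OS went the other way, with 613.89 and 408.88 estimated reads (-0.58, -0.76 to -0.40). Summed, the 2 genes had 1687 and 1627 reads, a ratio of -0.04 (-0.14 to 0.05), so the value of SLC7A6 cannot be told apart from how shared reads were assigned. SLC7A8, the light chain LAT2, had 116 and 139 reads (0.27, -0.10 to 0.64), and SLC7A7, the light chain y+LAT1, 15 and 20 reads (0.41, -0.62 to 1.49). Both intervals included 0.

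CAT1 and its relatives in SLC7 need no heavy chain. SLC7A1 had 7911 and 8200 reads, a ratio of 0.06 (0.0148 to 0.10), and its interval included 0 when libraries were scaled by their totals. SLC7A2, the related carrier CAT2, had 6 and 9 reads, and SLC7A4, SLC7A9 and SLC7A14 had at most 7 reads in a library. The second heavy chain, SLC3A1, which pairs with SLC7A9 in kidney and gut, had 0 and 2.88 estimated reads, with 29.4% of its exon bases overlapping PREPL. These 5 genes did not pass the filter.

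Promoter windows are shown for the CD98 partners, for SLC7A1, and for SLC6A14, the gene of largest ratio that has an entry in the table. Each runs from 250 bases before to 50 bases after a start site, 5′ to 3′ on the gene's strand, from RefSeq (GRCh38.p14), in which 24 of the 30 genes matched, with 45 windows. Capitals mark matches to 1 of 5 motifs, searched on both strands: CCGGAAGT and GGAAGGAA (ETS-type letters), TGATGNAA (the core of the amino acid response element that ATF4 binds), TGACNNNGC (the core of the antioxidant response element) and TGGAAA (the core of the tonicity element that NFAT5 binds). The motifs can overlap, and a match is a description of letters only. The SLC7A5 window (minus strand, chr16:87869458-87869757) holds the start of the transcript with 99.5% and 99.6% of its reads, and 1 match to TGACNNNGC. The SLC3A2 window (plus strand, chr11:62880646-62880945), around the start of its most abundant transcript, holds none of the 5. SLC7A1 (minus strand, chr13:29595639-29595938) holds TGACNNNGC and TGATGNAA. SLC6A14 (plus strand, chrX:116436356-116436655) holds none.
SLC7A5: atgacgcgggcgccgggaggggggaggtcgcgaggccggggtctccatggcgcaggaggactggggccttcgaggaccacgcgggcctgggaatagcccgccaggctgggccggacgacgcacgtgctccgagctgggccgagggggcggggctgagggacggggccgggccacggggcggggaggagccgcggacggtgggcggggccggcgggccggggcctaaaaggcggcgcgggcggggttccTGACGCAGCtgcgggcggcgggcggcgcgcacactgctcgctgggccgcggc
SLC3A2: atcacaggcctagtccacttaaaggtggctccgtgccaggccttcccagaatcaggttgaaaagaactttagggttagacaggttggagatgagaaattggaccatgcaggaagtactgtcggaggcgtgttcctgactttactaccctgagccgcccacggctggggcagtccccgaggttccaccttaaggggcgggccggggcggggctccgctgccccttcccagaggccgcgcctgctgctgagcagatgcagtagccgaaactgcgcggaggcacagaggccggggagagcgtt
SLC7A1: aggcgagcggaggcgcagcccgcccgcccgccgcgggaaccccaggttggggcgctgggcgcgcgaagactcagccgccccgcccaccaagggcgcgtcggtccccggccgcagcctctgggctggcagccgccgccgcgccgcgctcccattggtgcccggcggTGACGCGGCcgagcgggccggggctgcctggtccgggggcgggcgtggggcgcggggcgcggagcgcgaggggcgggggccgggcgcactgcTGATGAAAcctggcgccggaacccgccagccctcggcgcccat
SLC6A14: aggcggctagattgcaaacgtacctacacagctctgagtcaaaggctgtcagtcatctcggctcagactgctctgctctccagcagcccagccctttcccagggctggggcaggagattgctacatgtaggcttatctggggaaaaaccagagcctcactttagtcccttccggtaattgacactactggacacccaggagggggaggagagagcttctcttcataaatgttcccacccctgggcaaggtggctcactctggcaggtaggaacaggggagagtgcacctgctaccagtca

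The exact ETS-type letters were each in 1 window, too few to set apart from the share over all windows. Variants of these letters were not searched. CCGGAAGT was in 1 of 45 windows (SLC38A10, 2.22%) against 4.14% of all 35116 promoter windows, and GGAAGGAA in 1 of 45 (SLC7A8) against 3.67%. TGATGNAA was in 6 windows (13.3%), those of SLC1A3, SLC1A4, SLC1A5, SLC38A1, SLC3A2 and SLC7A1, against 3.62% of all windows. In SLC3A2, SLC1A3, SLC1A5 and SLC38A1 the window with this match is at an alternative start, not that of the most abundant transcript. TGACNNNGC was in 15.6% of the windows against 13.3%, and TGGAAA in 22.2% against 20.7%. Windows of 1 gene can overlap, so the counts are not independent, and no entry was given for SLC6A12, SLC7A11, SLC6A2, SLC6A6, SLC6A15 and SLC43A3.

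All 3 measured SLC1 genes had fewer reads in the FLI1 library, and the intervals of SLC1A3 and SLC1A5 lay below 0. SLC1A3, the glutamate transporter EAAT1, had 2277 and 1956 reads, the lowest ratio among the members with an interval that excluded 0, at -0.21 (-0.30 to -0.12). SLC1A5 had 5248 and 4892 reads (-0.09, -0.15 to -0.04), with 23.4% of its exon bases under an antisense gene whose reads, without a known strand setting, cannot be told apart from its own. SLC1A4, the alanine, serine and cysteine exchanger ASCT1, had 395 and 360 reads (-0.13, -0.34 to 0.08), and its interval included 0. SLC1A1, the glutamate transporter EAAT3, had 1 read in each library. The family median was -0.13, below 0 under every scaling, filter and unit tried, and its summed reads were 7920 and 7208 (-0.13, -0.17 to -0.08).

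The SLC38 carriers split between higher and lower. SLC38A2 (SNAT2), the carrier that cells are known to raise when amino acids are scarce or the medium is hypertonic, had 8671 and 9210 reads, a ratio of 0.09 (0.05 to 0.14). SLC38A1 (SNAT1), which also takes up glutamine, had 7290 and 7015 reads (-0.05, -0.10 to -0.0002), so its interval only just missed 0. SLC38A5 (SNAT5), a glutamine, asparagine and serine exchanger, had 3101 and 2919 reads (-0.08, -0.15 to -0.0061). The level of SLC38A2 was thus 1.97 times that of SLC38A1 in the vector control and 2.14 times in the FLI1 library, by FPKM. SLC38A4 had 19 and 11 reads and fell just outside the filter, next to SLC7A7 just inside it.

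Of the carriers on the lysosome, SLC38A9 had an interval above 0, and those of the others included 0. SLC38A9, which senses lysosomal arginine for mTORC1, had 495 and 602 reads, a ratio of 0.29 (0.12 to 0.46), and its level went from 15.12 to 18.45 FPKM. SLC38A7 (SNAT7), which exports glutamine and asparagine from the lysosome, had 650 reads in each library (0.0078, -0.15 to 0.17). SLC36A1 (PAT1), a proton-coupled carrier of small amino acids, had 657 and 665 reads (0.03, -0.13 to 0.18). SLC36A4 (PAT4) had 346 and 325 reads (-0.08, -0.31 to 0.14), yet its FPKM went from 6.57 to 7.01. The other SLC38 members, SLC38A6 (284.3 and 311.71 estimated reads) and SLC38A10 (1418 and 1325 reads), had intervals that included 0.

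SLC6 held both of the largest ratios and otherwise no interval that excluded 0. SLC6A12, the betaine and GABA transporter BGT1 (gene ID 6539, chromosome 12, 190077 to 214570, minus strand), had 1 read in the vector control and 41 in the FLI1 library. The log2 ratio was 4.80 (2.81 to 10.70), and the level went from 0.03 to 0.97 FPKM, still far below the level of most members. Its reads in the FLI1 library were assigned to 3 transcripts with 26.9, 11.57 and 2.53 estimated reads, while the 1 read of the vector control was assigned to another transcript. SLC6A14, the broad neutral and cationic amino acid transporter ATB0,+, had 36 and 61 reads, a ratio of 0.76 (0.15 to 1.40), and 0.58 and 0.98 FPKM. Both genes were thus in the lowest part of the level range, where a ratio rests on few reads, and neither had 100 reads in a library. Both have whole counts and no stretch of 75 bases in common with transcripts of other genes, though 1.12% of the exon bases of SLC6A12 overlap an antisense gene.

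The intervals of the other 6 SLC6 genes past the filter all included 0. The creatine transporter SLC6A8 had 1880 and 1958 reads (0.07, -0.03 to 0.16) and the taurine transporter SLC6A6 936.66 and 963.37 estimated reads (0.05, -0.08 to 0.18). SLC6A9, the glycine transporter GlyT1, had 1376 and 1308 reads (-0.07, -0.18 to 0.04). The GABA transporter SLC6A11 (GAT3) had 499 and 461 reads (-0.11, -0.29 to 0.08), and the neutral amino acid transporter SLC6A15 505 and 474 (-0.08, -0.27 to 0.10). SLC6A2 had 37 and 31 reads, a ratio of -0.24 (-0.98 to 0.48), an interval that allows a difference in either direction. The related genes SLC6A4, SLC6A5, SLC6A16, SLC6A19 and SLC6A20 had at most 6 reads in a library and did not pass the filter. Neuronal markers were near the detection limit, with SYP (33 and 23 reads) the 1 of 5 past the filter.

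In SLC43 every interval of the 3 genes included 0. SLC43A1 (LAT3) had 60 and 54 reads (-0.14, -0.70 to 0.41) and SLC43A2 (LAT4) 248.2 and 272.11 estimated reads (0.14, -0.11 to 0.40), both facilitators of large neutral amino acids. SLC43A3 had 4310 and 4391 reads (0.03, -0.03 to 0.10), and shares 35.5% of its transcript bases, as exact matches of at least 75 bases, with a readthrough gene.

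Set side by side, the families differed little. Medians were -0.13 for SLC1 (3 genes), -0.08 for SLC3 (SLC3A2 alone), -0.0090 for SLC6 (8 genes), 0.22 for SLC7 (6 genes), -0.03 for SLC36 (2 genes), 0.0078 for SLC38 (7 genes) and 0.03 for SLC43 (3 genes). Those of SLC36 and SLC38 changed sign when taken from FPKM, that of SLC38 also when scaled by library totals, and those of SLC38 and SLC43 without genes that share reads. The SLC7 median stood above 0 because 5 of its 6 genes had a ratio above 0. It lay between the values of SLC7A6 and SLC7A11, which share reads, and was 0.16 without such genes. The family's summed reads were lower, 43592 and 40910 (-0.08, -0.10 to -0.06), since SLC7A5 holds most of them. Summed FPKM was 645 and 592 for SLC7, 402 and 401 for SLC38, 214 and 194 for SLC1, 130 and 131 for SLC43, 104 and 102 for SLC6 and 15.4 and 16.1 for SLC36. Summed over all 30 genes there were 97037 and 93161 reads (-0.05, -0.06 to -0.04), and the families whose summed reads had an interval below 0 were SLC7, SLC3 and SLC1. Members are not replicates, and no test between families was made.

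**Figure D3:**
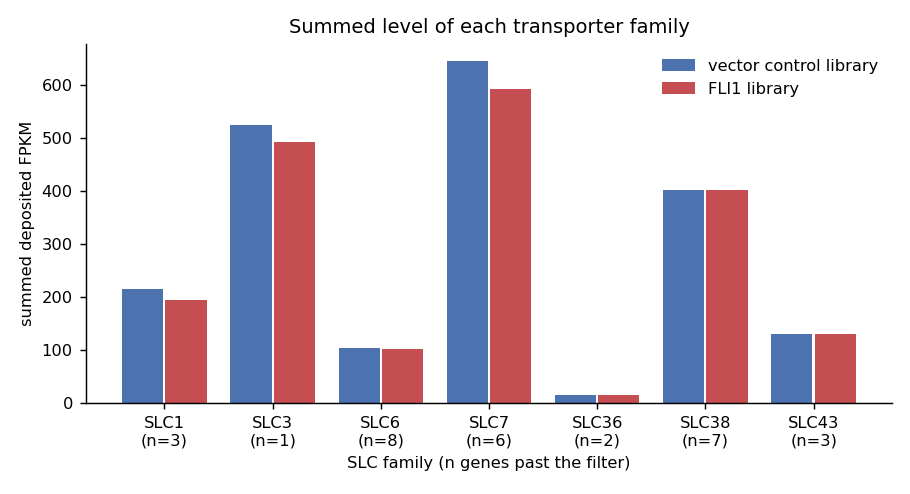
Deposited FPKM summed over the genes past the filter of each SLC family (n below each name), with 1 bar per library. SLC7 (645 and 592 FPKM), SLC3 (523.58 and 492.19) and SLC1 (214 and 194) are lower in the FLI1 library, and the other 4 families are within 2 FPKM of their vector control value.

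The transcript table was read for the same genes, to see which isoforms held the reads. Of 28 genes with a transcript of at least 20 reads, 11 had 1 transcript with at least 75% of the reads in both libraries, against 50% of all 11374 genes that have a transcript of at least 20 reads. The main transcript of SLC7A5 held 99.5% and 99.6% of its reads, that of SLC7A1 97.1% and 96.1%, that of SLC38A2 95.4% and 94.4%, and that of SLC3A2 76.3% and 78.9%. Within SLC3A2, the main transcript NM_001013251 had 9703 and 9469 estimated reads (-0.03, -0.07 to 0.01), while NM_002394, which starts further upstream, had 1241 and 902 (-0.45, -0.58 to -0.33). From the same upstream start, NM_001012662 had 1567 and 1411 estimated reads (-0.14, -0.25 to -0.04) and NM_001012664 213 and 224 (0.08, -0.20 to 0.36). In 11 of the 28 genes some transcript's share moved by at least 10 percentage points, SLC6A12 among them, against 29.3% of those 11374 genes. Such shifts were thus common in the whole table, and those below are described as values only. Shares are estimates, and the error of assigning reads to similar transcripts is not in the intervals.

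SLC7A8 had the largest such difference beside SLC6A12. Its gene total had an interval that included 0, but NM_012244 went from 67.46 to 123.65 estimated reads (58.2% to 89.0% of the gene; log2 ratio 0.89, 0.46 to 1.35) and NM_182728 from 48.54 to 15.35 (41.8% to 11.0%; -1.67, -2.64 to -0.84). These transcripts begin at different start sites, so both promoter windows are shown. The window of NM_012244 (minus strand, chr14:23183611-23183910) holds none of the 5 motifs. That of NM_182728 (minus strand, chr14:23154344-23154643) holds TGGAAA on both strands and GGAAGGAA read on the opposite strand. Capitals are as above.
SLC7A8 at the start of NM_012244: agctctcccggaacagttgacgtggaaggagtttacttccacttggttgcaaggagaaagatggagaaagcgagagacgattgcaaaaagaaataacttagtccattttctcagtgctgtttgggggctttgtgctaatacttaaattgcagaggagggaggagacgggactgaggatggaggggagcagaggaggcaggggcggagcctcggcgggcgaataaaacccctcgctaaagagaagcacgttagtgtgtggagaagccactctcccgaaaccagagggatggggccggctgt
SLC7A8 at the start of NM_182728: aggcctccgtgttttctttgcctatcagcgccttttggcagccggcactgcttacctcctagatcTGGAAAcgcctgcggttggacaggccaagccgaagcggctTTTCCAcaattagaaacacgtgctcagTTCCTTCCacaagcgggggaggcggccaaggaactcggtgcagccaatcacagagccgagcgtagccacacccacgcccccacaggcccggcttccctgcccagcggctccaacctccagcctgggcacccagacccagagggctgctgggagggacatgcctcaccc

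Shifts between transcripts also lay beneath gene totals whose intervals included 0, as in SLC38A7, SLC1A4 and SLC36A4. SLC38A7, with 650 reads in each library, had 79.0% and 54.0% of them in NM_018231, and XM_017023395, a predicted model, went from 34.21 to 139.21 estimated reads. In SLC1A4, NM_001348407 went from 198.16 to 71.57 estimated reads, NM_003038 from 196.84 to 233.33 and NM_001348406 from 0 to 55.10. In SLC36A4 the share of NM_152313, the transcript with most reads in the vector control, went from 51.6% to 31.5%, beside the opposite signs of its read and FPKM ratios. In SLC38A9, whose gene total had an interval above 0, the most abundant transcript, NM_173514, had 232.56 and 221.81 estimated reads. There 2 similar models swapped, NM_001349382 with 71.75 and 0 reads and NM_001349383 with 0 and 68.41.

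**Figure D4:**
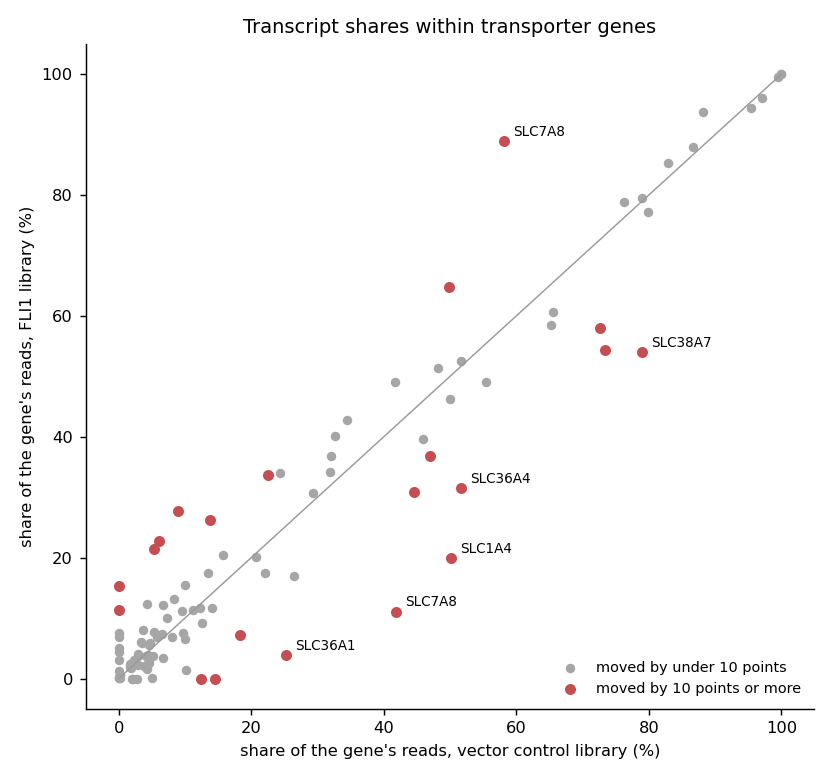
Share of its gene's estimated reads held by each transcript with at least 20 reads in 1 library, vector control (x axis, %) against FLI1 (y axis, %), without SLC6A12, with the diagonal for equal shares. Red points moved by at least 10 percentage points, those that moved by 20 or more carry the gene symbol, and the 2 SLC7A8 transcripts lie farthest from the diagonal (58.2% to 89.0% and 41.8% to 11.0%).

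Genes around these transporters were read from 9 lists, with the 43 transporter genes left out. In the ATF4 amino acid response, the program by which cells raise transporters such as SLC7A11 and SLC7A5 when amino acids run short, the intervals of 3 of 18 measured genes lay above 0 and of 3 below, and the median was 0.04, where 16.5% of all genes lay above and 14.7% below. PPP1R15A, a phosphatase subunit that ends the response, had 716 and 1187 reads (0.74, 0.60 to 0.87), CHAC1, which degrades glutathione, 45 and 68 (0.60, 0.04 to 1.18), and the mTORC1 inhibitor DDIT4 1619 and 1118 (-0.53, -0.64 to -0.42). ATF4 itself (3901 and 4010 reads) and its target ASNS, asparagine synthetase (368 and 338), both looked up after values were seen, had intervals that included 0. Amino acid sensing by mTORC1 had 3 of 36 intervals above 0 and 5 below, with a median of 0.0095 that changed sign by library total and FPKM. CASTOR1, the cytosolic arginine sensor, was at least 2-fold lower, with 26 and 8 reads (-1.63, -3.05 to -0.51). KICS2, of the complex that holds GATOR1 on the lysosome, had 134 and 100 reads (-0.41), and the leucine sensor relative SESN1 196 and 147 (-0.41).

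In glutathione synthesis and use, the intervals of 3 of 13 genes lay above 0 and of 0 genes below, with a median of 0.08. Of all genes, 16.5% lay above and 14.7% below, so the count above is near that share. GCLM, the modifier subunit of the rate-limiting ligase, had 1716 and 1978 reads (0.21, 0.12 to 0.31), TXNRD1, thioredoxin reductase, 3504 and 4076 (0.23, 0.16 to 0.29), and CHAC1 is given above. Amino acid metabolism had 4 of 27 above and 5 below (median -0.03). ARG2, mitochondrial arginase, was at least 2-fold higher with 23 and 66 reads (1.51, 0.82 to 2.28) from counts that were not whole, and BCKDHB, of branched-chain breakdown, had 123 and 158 (0.37, 0.0199 to 0.72). Mitochondrial amino acid carriers had 2 of 14 above and 3 below (median -0.13). Those named by rule were SLC25A40 (-0.24, interval -0.47 to -0.0009) and SLC25A39 (-0.20, -0.30 to -0.09), both tied to glutathione import into mitochondria, and the ornithine carrier SLC25A15 (-0.23, -0.40 to -0.07).

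The osmotic response list is set beside SLC6A12 and SLC6A6, which NFAT5 is known to induce under hypertonic stress. NFAT5 had 2148 and 2674 reads (0.32, 0.24 to 0.41), LRRC8A, a subunit of the volume-regulated anion channel, 4306 and 6070 (0.50, 0.45 to 0.56), and the kinase SGK1 97 and 141 (0.55, 0.16 to 0.94). As a whole 3 of 13 genes were above 0 and 2 below (HSPA1A at -0.17 and HSPA1B at -0.20), with a median of -0.0014. Counts of HSPA1A and of HSPA1B were not whole, so both values depend on how shared reads were assigned. For 2 classical NFAT5 targets looked up after values were seen, AKR1B1 (1522 and 1457 reads) and SLC5A3 (905 and 847), the intervals included 0. A part of NFAT5 in these values was not tested. Transporter partners and trafficking genes had 9 of 15 above and 2 below, with a median of 0.20, against 16.5% and 14.7% of all genes. Several of them are deeply read, and among all genes with at least 1000 reads in 1 library 26.6% lay above and 19.0% below. The list included the mucin MUC1 (249 and 467 reads, 0.91) and TXNIP, an arrestin that promotes uptake of transporters into the cell (213 and 357, 0.75). Other amino acid and peptide transporters, of the plasma membrane and the lysosome, had 1 of 6 above and 0 below (median 0.13). The 1 above was the lysosomal peptide transporter SLC15A3, at least 2-fold higher with 32 and 65 reads (1.02, 0.40 to 1.69). Housekeeping genes had 7 of 16 above and 3 below with a median of -0.0081, against 16.5% and 14.7% of all genes. Most of these genes have at least 1000 reads in 1 library, a depth at which 26.6% of all genes lay above and 19.0% below. GUSB had a ratio of -0.25 and POLR2A of 0.21, both farther from 0 than the ratio of SLC7A5.

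**Figure D5:**
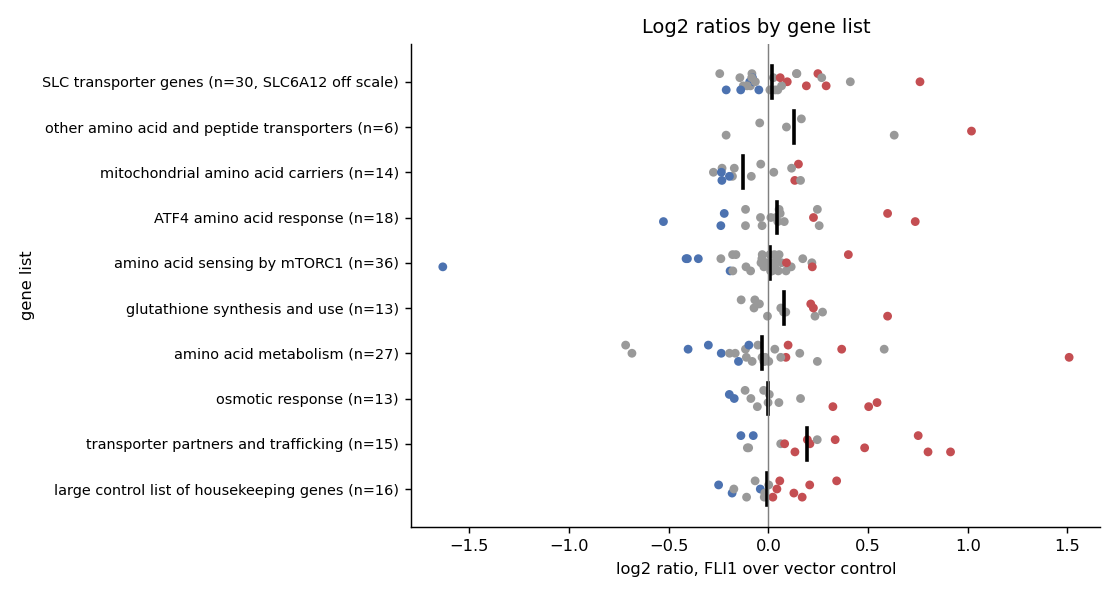
Log2 ratio (FLI1 over vector control) of each gene past the filter in the transporter families and in 9 gene lists, with a vertical bar for the median, red for intervals above 0, blue for below 0 and grey for intervals that include 0. Medians lie between -0.13 and 0.20, CASTOR1 (-1.63) and ARG2 (1.51) lie farthest out, and SLC6A12 (4.80) is off the scale.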

How the data were processed

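RNA-seq of 2 HaCaT libraries was used, grouped by the genotype labels. Per the submitters' processing notes the genome was GRCh38.p13. For the aligner, counter, gene annotation and strandedness, nothing is given in the sources used here. The deposited read counts are estimated counts, whole to within 0.005 reads for 84.1% and 84.5% of genes, and were rounded first because the design had foreseen counts with no fractions. The deposited FPKM values, which the authors scaled for depth and gene length, gave levels. The deposited TPM values were not used.

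Libraries were scaled by TMM (edgeR 4.0.16, R 4.3.3). A ratio adds 0.5 reads to each count, and its 95% interval is an exact conditional (Clopper-Pearson) one. Its calculation was checked on simulated independent counts, where such an interval holds by design and no error of assigning reads exists. The interval covers counting error only, as the reads carry no molecular identifiers and are not independent molecules. Genes with at least 20 estimated reads in 1 library passed the filter, and a difference of at least 2-fold is a rule of size. No p-value was computed.

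Genes named were FLI1, every transporter gene, and from each list the 3 with the largest absolute ratio among intervals excluding 0, of which some are not reported here. Members and lists were chosen with earlier results of these data known. Alternatives were scaling by library total or DESeq2 1.42.0 size factors, a minimum of 1 or 100 reads, FPKM plus 0.5 or 1, and, added after seeing the data, leaving out 6 genes that share reads (fractional counts, or at least 20% of transcript bases in 75-base exact matches to another gene, BLAST+ 2.17.0). Positions and overlaps came from GENCODE release 29 (GRCh38).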

Additional observations from a re-analysis of the deposited data

How the results depend on the processing

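No paired analysis was possible because each group had 1 library, and no library could be left out. The ratios of the 30 transporter genes kept their sign under both other scalings, except SLC36A1 and SLC38A7 by library total. The interval of SLC7A1 then included 0, that of SLC38A10 lay below 0, and SLC7A5 moved to -0.16. With at least 1 read the size rule gave 5 higher and 4 lower transporter genes, 1173 and 839 of all genes, and an SLC3 median of 1.37, through SLC3A1. With at least 100 reads it gave 0 transporter genes higher, and 49 higher and 7 lower of all genes, since SLC6A12 has fewer reads. From FPKM plus 0.5 it gave 66 higher and 10 lower of all genes, and from FPKM plus 1 it gave 50 and 7 and 0 transporter genes higher. SLC6A12 then stood at 1.47 and 0.94 and FLI1 at 4.69 and 4.39, because an added value shrinks ratios of low levels. Without genes that share reads 5 intervals lay above 0 and 6 below, and the median of the transporter genes was -0.07. Scaling moved the median of all genes by at most 0.03. Genes with under 100 reads can show only differences well beyond the sizes seen among deeply read members.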
